A study of Homo sapiens with 47 samples.

Results

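The bone morphogenetic protein (BMP) response genes described here are 10 genes of 58051 listed per library: ID1 (ENSG00000125968), ID2 (ENSG00000115738), ID3 (ENSG00000117318), ID4 (ENSG00000172201), the inhibitory SMADs SMAD6 (ENSG00000137834) and SMAD7 (ENSG00000101665), SMAD9 (ENSG00000120693), BAMBI (ENSG00000095739) and the type I receptors BMPR1A (ENSG00000107779) and BMPR1B (ENSG00000138696). They were taken by gene symbol from a list of BMP receptors and response genes, which was drawn up with earlier results of these data known, and all 10 passed the filter on low counts. Bulk poly(A) RNA-seq of WA09 (H9), an established human embryonic stem cell (hESC) line, covered 35 whole cultures: undifferentiated cells maintained in mTESR1 (t0), neuromesodermal progenitor (NMP)-like cells after 36 h, and passages P1 to P10, which the labels call pre-neural progenitors and neural crest (PNP/NC). From t0 onwards every culture was held in N2B27 without vitamin A, with the WNT agonist CHIR-99021, FGF2, the retinoic acid receptor antagonist AGN193109 and the ROCK inhibitor Y-27632. No BMP ligand or BMP inhibitor is listed for any group, and the source of ligand in these cultures was not tested. Each time point had 3 differentiations of this line (r1, r2 and r3), except P9 with r1 and r2. A further 12 libraries were epithelial (EPI) and mesenchymal (MES) fractions obtained by selective detachment from P5 and P8 cultures, 3 of each. These fractions are enriched and not pure, and in bulk RNA a change in cell make-up and a change in RNA per cell cannot be told apart.

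BMP ligands bind a complex of type I receptors (BMPR1A, BMPR1B, ACVR1) and type II receptors (BMPR2 and activin receptors), which phosphorylates SMAD1, SMAD5 and SMAD9. These join SMAD4, enter the nucleus and raise transcription of the ID genes, whose proteins lack a DNA-binding domain and hold bHLH partners such as the E proteins away from DNA. The same signal raises its own brakes: SMAD6 and SMAD7 block receptors and receptor SMADs, and BAMBI is a receptor-like membrane protein without a kinase. NOG, CHRD and GREM1 bind BMP ligands outside the cell, and FST binds activins and, more weakly, BMPs. In the embryo BMP signalling at the border of the neural plate takes part in forming the neural crest. BAMBI and ID2 are also transcribed with WNT signalling, and the ID genes respond to other signals as well.

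Depth ran from 13029491 to 64082859 expected counts per library with a median of 47292229, and P6.r3, P4.r3 and P1.r1 were the shallowest. The labelled cell types were checked by their summed TPM, a level scaled to transcript length and to the library. The 5 hESC markers summed to 3032 to 3405 TPM at t0 and 3.58 to 10.1 TPM at P8, and the 9 neural crest markers to 29.1 to 31.3 TPM at t0 and 223 to 824 TPM at P8. Markers of amnion or surface ectoderm, other cells that BMP can give, summed to at most 6.33 TPM in any library. The library P10.r1 stood apart from P10.r2 and P10.r3, with 428 TPM of the 6 epithelial progenitor markers against 7.37 and 5.29 TPM, and P1.r1 stood apart at the start with 1223 TPM of hESC markers, the highest of P1. The counts of members called in tests that involve P1 or P10 and the medians of the relations to the ligands are given with and without both, while levels, their order and the likeness between genes use all libraries. Differentiation numbers entered every model as a block, and a gene was called when its FDR lay below 1%, its groups differed 2-fold or more and its normalized counts averaged 100 or more (edgeR quasi-likelihood test, Benjamini-Hochberg adjustment over all genes tested). All differentiations used 1 cell line, so the p-values do not cover other lines. They rest on the spread between libraries that is left after group and block. Serial passages of 1 culture counted as separate samples in this spread, although they are not independent.

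The promoters of the 5 members that were called at the last passages are shown here because these genes were higher together there. Each window runs from 250 bases before to 50 bases after the start (RefSeq, GRCh38.p14), 5′ to 3′ on the gene's strand, with matches to 4 SMAD-related motifs in capitals, and the first 3 are ID1 at chr20:31605039-31605338 on the plus strand, ID3 at chr1:23559452-23559751 on the minus strand and SMAD6 at chr15:66701986-66702285 on the plus strand. SMAD7 lies at chr18:48950916-48951215 on the minus strand, with the closest of 3 listed starts to the annotated gene end used, and BAMBI at chr10:28677271-28677570 on the plus strand.
ID1: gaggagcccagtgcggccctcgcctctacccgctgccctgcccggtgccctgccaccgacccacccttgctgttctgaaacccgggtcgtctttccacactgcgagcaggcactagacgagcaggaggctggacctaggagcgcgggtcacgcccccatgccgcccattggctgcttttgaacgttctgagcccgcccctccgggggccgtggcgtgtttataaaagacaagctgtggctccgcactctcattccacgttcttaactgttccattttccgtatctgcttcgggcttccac
ID3: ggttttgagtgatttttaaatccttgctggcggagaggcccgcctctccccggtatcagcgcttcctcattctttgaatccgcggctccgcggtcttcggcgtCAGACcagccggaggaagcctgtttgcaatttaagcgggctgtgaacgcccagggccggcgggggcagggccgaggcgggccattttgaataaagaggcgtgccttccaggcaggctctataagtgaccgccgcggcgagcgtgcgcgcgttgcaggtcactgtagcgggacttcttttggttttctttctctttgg
SMAD6: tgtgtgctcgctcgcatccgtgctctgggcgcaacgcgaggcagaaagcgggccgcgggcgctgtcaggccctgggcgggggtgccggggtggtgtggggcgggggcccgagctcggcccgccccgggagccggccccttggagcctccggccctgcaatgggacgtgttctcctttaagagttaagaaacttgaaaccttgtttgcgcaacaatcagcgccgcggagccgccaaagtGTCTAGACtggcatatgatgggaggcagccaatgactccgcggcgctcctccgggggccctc
SMAD7: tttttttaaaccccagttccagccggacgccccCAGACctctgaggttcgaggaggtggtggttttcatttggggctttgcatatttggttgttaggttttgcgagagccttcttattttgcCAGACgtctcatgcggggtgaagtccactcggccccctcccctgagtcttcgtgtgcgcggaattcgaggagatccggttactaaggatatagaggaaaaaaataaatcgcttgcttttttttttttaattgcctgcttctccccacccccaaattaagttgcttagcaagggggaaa
BAMBI: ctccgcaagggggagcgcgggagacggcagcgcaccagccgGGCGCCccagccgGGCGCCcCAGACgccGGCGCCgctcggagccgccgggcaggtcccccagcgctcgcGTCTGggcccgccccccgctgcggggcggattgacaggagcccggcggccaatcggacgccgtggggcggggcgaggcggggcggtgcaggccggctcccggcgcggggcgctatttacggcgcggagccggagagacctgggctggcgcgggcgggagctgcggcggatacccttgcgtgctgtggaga

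All 10 members matched the RefSeq table by symbol. Both strands were searched for GGCGCC, a GC-rich SMAD1 and SMAD5 site, CAGAC, a SMAD4 site, GTCTAGAC, the palindromic SMAD site, and the composite BMP response element, which holds GGCGCC and, after a spacer, GTCT, and so overlaps the first motif. GGCGCC was in 1 of 10 members, at positions -209, -196 and -181 from the start of BAMBI, against 19.2% of 35116 promoter windows of the same length. CAGAC was in 5 of 10 members, among them ID3, SMAD7 and BAMBI, against 45.3% of windows. GTCTAGAC was in SMAD6, at -12 from its start, and in 0.202% of windows. The composite was in 0 of 10 members and 0.103% of windows, and the ID1 window held none of the 4. The matches describe these letters in these windows only.

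The level of BMP ligands rose early in the passages and stayed high. BMP4 stood at 1.61, 1.85 and 1.5 TPM in r1, r2 and r3 at t0 and at 9.33, 7.64 and 5.03 TPM at P1. At P5 it had reached 171, 238 and 363 TPM, a rise of 4.97 ± 0.62 on the log2 scale against P1 (± SE here and below, adjusted p = 1.4e-05). BMP6 and BMP7 rose with it by 5.01 ± 0.84 (adjusted p = 0.000316) and 2.49 ± 0.49 (adjusted p = 0.00124). Thus 3 of 10 tested ligands were called higher at P5 and none lower, beside 2.15% and 1.86% of all genes, respectively. The sum of the 13 listed ligands went from 13.8, 15.7 and 13.04 TPM at t0 to 246, 363 and 451 TPM at P5 and 205, 611 and 357 TPM at P8. Antagonists moved as well: NOG rose by 5.40 ± 0.87 from P1 to P5 (adjusted p = 0.000211), from 1.26, 1.85 and 0.41 TPM to 41.1, 66.9 and 47.0 TPM, while CHRD fell by 2.48 ± 0.50 (adjusted p = 0.00158) and FST fell by 7.48 ± 1.04 (adjusted p = 4.72e-05). GREM1, which was called higher between 36h and P1 (log2 fold change 4.67 ± 0.76, adjusted p = 0.000818), stood at 111 to 126 TPM at P5. BMP4 and NOG messages were thus both far above t0 in the same P5 libraries. Without P1.r1 and P10.r1 the same 6 genes passed from P1 to P5, at 5.70 for BMP4, 5.06 for BMP6, 2.55 for BMP7, 5.53 for NOG, -2.80 for CHRD and -6.20 for FST on the log2 scale, and GREM1 passed from 36h to P1 at 5.03 (adjusted p = 6.75e-05). With only the compared groups in the fit, 2 of 18281 genes were called from P1 to P5, so most of these 6 calls were lost. In that setting 0 of 18333 genes were called from 36h to P1, so the GREM1 call was lost. Without r2 and without r3, 106 and 107 genes were called from P1 to P5, against 871 in the main fit. From 36h to P1 these fits called 2 and 12 genes, against 259.

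**Figure D1:**
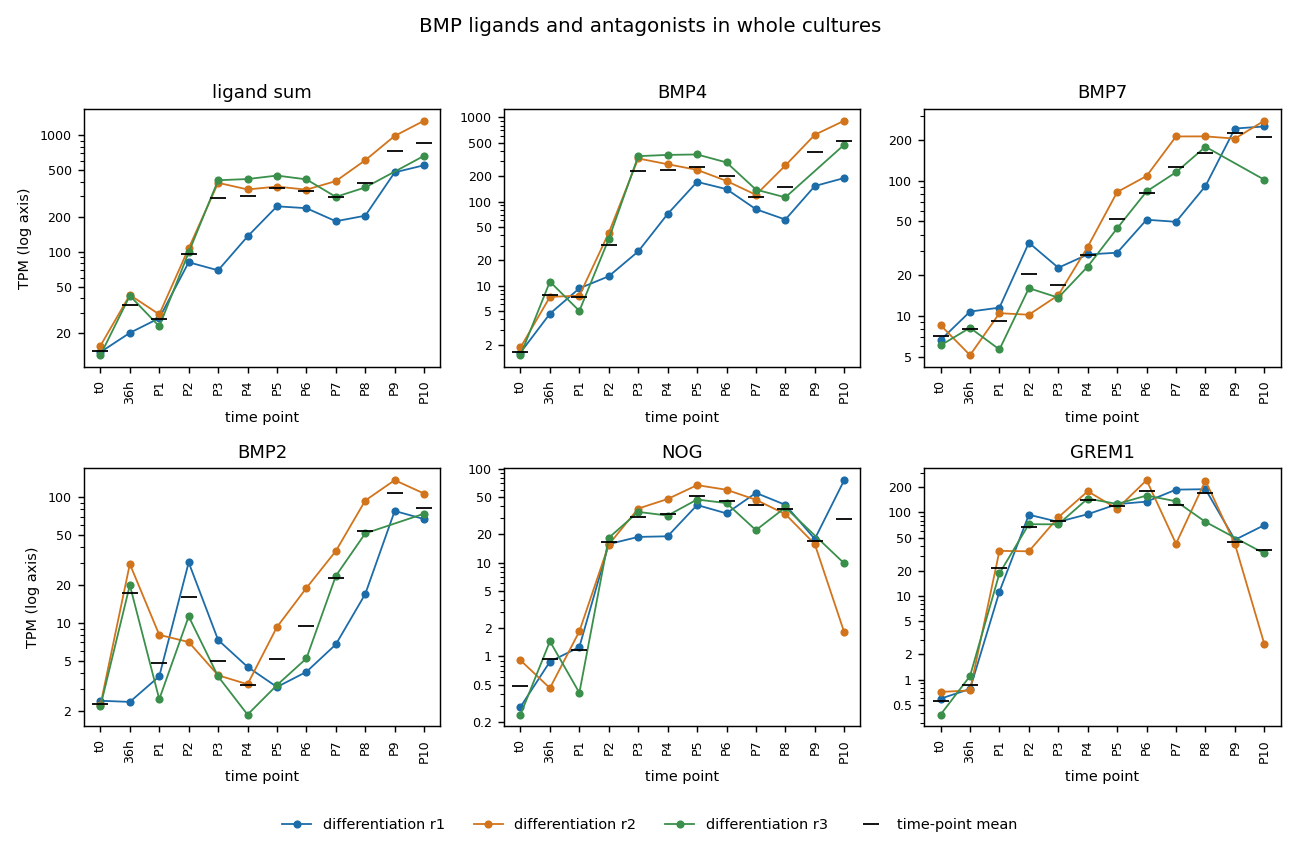
TPM on a log axis of the sum of 13 BMP ligands, BMP4, BMP7, BMP2 and the antagonists NOG and GREM1 at t0, 36h and P1 to P10, with 1 line per differentiation and a bar at the time-point mean. BMP4 climbs from 1.5 to 1.85 TPM at t0 to 171 to 363 TPM at P5 and reaches 914 TPM in P10.r2, while NOG is high from P2 to P8 and is 1.81 TPM in P10.r2 and 75.6 TPM in P10.r1.

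Over the first passages no member passed the test, while the median difference of the members was above that of all genes in some steps. Between t0 and 36h, 0 of 10 members were called, beside 2.69% of all genes called, 1.37% lower (3 members had an unadjusted p under 0.05, and DESeq2 called 0 beside 4.02% of all genes). ID3 was the nearest, at 170, 159 and 186 TPM at t0 and 229, 410 and 542 TPM at 36h, so that every 36h library lay above every t0 library (log2 fold change 1.10 ± 0.35, adjusted p = 0.0414). SMAD7 went the other way, from 13.3, 13.2 and 14.0 TPM to 7.35, 7.96 and 6.12 TPM (log2 fold change -0.96 ± 0.39, adjusted p = 0.111). Of 11 other genes known to rise with BMP, 3 were called higher at 36h, among them the homeobox genes MSX1 (7.21 ± 0.85, adjusted p = 3.48e-06) and MSX2 (4.52 ± 0.94, adjusted p = 0.00235), and 5 of 7 WNT targets were called higher. MSX1 was at 4.54, 42.6 and 159 TPM at 36h against 0.27 to 0.91 TPM at t0, so its size depended on the differentiation, and both calls were lost without r2 or with only the compared groups in the fit, and that of MSX2 also without r3. These lists had median log2 fold changes of 3.09 and 3.82, respectively, beside 0.70 for the members and 0.00 for all genes tested. Between 36h and P1, 0 of 10 members were called beside 1.19% of all genes (3 at an unadjusted p under 0.05, and 0 by DESeq2 beside 2.63%). The members' median log2 fold change was -0.10. Without P1.r1 and P10.r1, 1 member was called beside 4.34% of all genes and 5 had an adjusted p under 0.05. The call was SMAD7, lower at P1 (-1.73 ± 0.33, adjusted p = 0.000914, against -1.11 ± 0.40 and 0.0819 with all libraries). The spread between differentiations was wide here, since ID1 stood at 8.59, 73.1 and 34.8 TPM in the P1 libraries.

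From P1 to P5, the step over which BMP4 rose, 0 of 10 members were called beside 4% of all genes (4 at an unadjusted p under 0.05), and 2 were called by DESeq2 beside 5.79% of all genes. BMPR1B and ID4 came closest to the threshold. ID4 stood at 6.66, 5.05 and 3.04 TPM at P1 and at 14.9, 34.9 and 24.8 TPM at P5, with no overlap (log2 fold change 2.19 ± 0.62, adjusted p = 0.0168). BMPR1B stood at 1.21, 2.30 and 2.67 TPM at P1 and at 5.70, 4.63 and 5.73 TPM at P5, again with no overlap (1.32 ± 0.35, adjusted p = 0.0109). ID1 was at 94.0, 57.5 and 142 TPM at P5, above its own P1 level in r1 and r3 and below it in r2 (1.28 ± 0.59, adjusted p = 0.137). The feedback inhibitors stayed low: BAMBI was at 3.88, 6.97 and 20.0 TPM and SMAD6 at 2.91, 3.81 and 6.88 TPM at P5, levels that overlapped those of P1. The median log2 fold change of the members was 0.62, beside -0.01 over all genes tested and 0.85 for the ligands. Without P1.r1 and P10.r1, 1 member was called beside 5.49% of all genes. This was ID2, at 221, 36.3 and 12.7 TPM at P1 and 203, 145 and 237 TPM at P5 (2.94 ± 0.67, adjusted p = 0.00328), while ID4 had 2.52 ± 0.72 (adjusted p = 0.0153), BMPR1B 1.10 ± 0.39 (adjusted p = 0.0475) and ID1 0.74 ± 0.53 (adjusted p = 0.35).

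Between P5 and P8, 0.0092% of all genes were called, 0.0046% higher and 0.0046% lower, and 0 of 10 members (2 at an unadjusted p under 0.05, and 0 by DESeq2 beside 0.713%). SMAD7 was at 4.88, 6.85 and 4.45 TPM at P5 and 5.42, 11.4 and 13.4 TPM at P8 (log2 fold change 1.10 ± 0.39, adjusted p = 0.199). ID1 was at 22.4, 34.7 and 97.8 TPM at P8, below P5 in each differentiation (log2 fold change -1.18 ± 0.57, adjusted p = 0.376). Summed ligand in the same P8 libraries was 205 to 611 TPM.

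Set against t0, 3 of 10 members were called higher at P8 and none lower, beside 15.3% of all genes called, 7.66% higher and 7.67% lower. ID4 rose from 2.53, 2.63 and 2.53 TPM to 24.9, 28.2 and 22.5 TPM (log2 fold change 3.18 ± 0.64, adjusted p = 0.000267). SMAD9, a receptor SMAD that is itself transcribed with BMP signalling, rose from 0.84, 0.62 and 0.53 TPM to 9.16, 4.51 and 4.13 TPM (3.28 ± 0.67, adjusted p = 0.000294). BMPR1B rose from 0.68, 0.56 and 0.61 TPM to 4.80, 2.68 and 3.11 TPM (2.37 ± 0.36, adjusted p = 1.14e-05). For each of these 3 genes all P8 libraries lay above all t0 libraries. ID1, ID3 and BAMBI had P8 levels on either side of their t0 levels, and SMAD7 at P8 (5.42 to 13.4 TPM) reached into its t0 range only in r3. In the same comparison 6 of 10 tested ligands, 6 of 16 antagonists, 6 of 11 other BMP-associated genes and 7 of 7 WNT targets were called higher.

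Of the 6 comparisons between time points, the one at the end of the course had the most members called in the main fit. It had 0 called without the block, without r2, without r3 or with only the compared groups, as given below. In P9 and P10 against P8, 5 of 10 members were called higher and none lower, beside 1.25% of all genes called, 0.772% higher and 0.474% lower. The median log2 fold change of the members was 1.62, beside -0.01 over all genes tested. DESeq2 with the same block also called 5, beside 3.4% of all genes.

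ID1 was at 22.4, 34.7 and 97.8 TPM at P8, at 636 and 513 TPM in P9.r1 and P9.r2, and at 57.7, 366 and 688 TPM in P10.r1, P10.r2 and P10.r3. Among these whole cultures P10.r1 alone lay within the P8 range, and the P8 MES fraction of r3, at 386 TPM, lay above P10.r2. The log2 fold change was 3.52 ± 0.60 (adjusted p = 0.00166). ID3, which was the most abundant member at t0, was at 133, 146 and 244 TPM at P8, at 831 and 540 TPM at P9 and at 202, 429 and 642 TPM at P10 (1.81 ± 0.34, adjusted p = 0.00303), again with P10.r1 alone inside the range of whole P8 cultures, and with P8 MES of r3, at 557 TPM, above P9.r2 and P10.r2. ID2 was at 170, 88.1 and 129 TPM at P8, at 557 and 506 TPM at P9 and at 136, 339 and 736 TPM at P10, and was not called (1.97 ± 0.71, adjusted p = 0.076). ID4 did not share the pattern, with 72.0 and 16.4 TPM at P9 and 56.2, 8.10 and 47.2 TPM at P10 against 22.5 to 28.2 TPM at P8, so that r2 lay below P8 and the other differentiations above it.

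**Figure D2:**
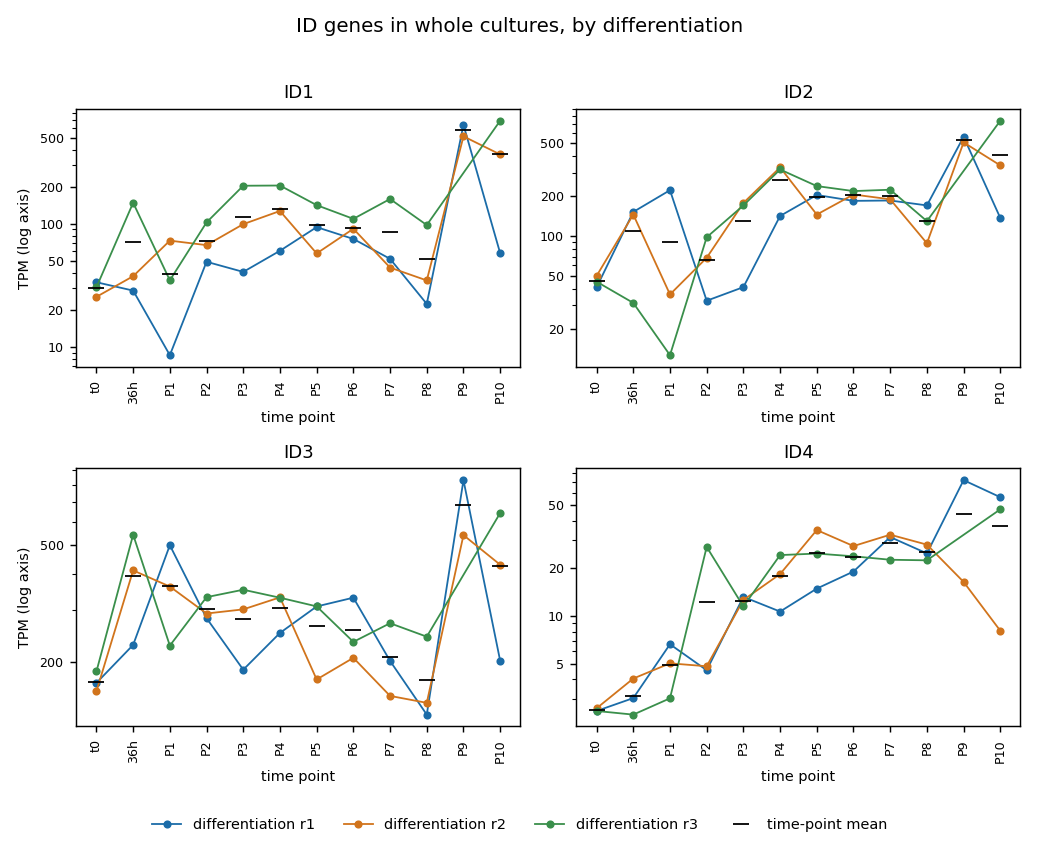
TPM on a log axis of ID1, ID2, ID3 and ID4 in the 35 whole cultures, with 1 line per differentiation and a bar at the time-point mean. ID1, ID2 and ID3 are highest at P9 in r1 and r2 and at P10 in r3, and P10.r1 drops back to 57.7, 136 and 202 TPM, whereas ID4 climbs from 2.53 to 2.63 TPM at t0 and stands at 8.10 TPM in P10.r2. The line of r3 runs from P8 to P10 without a P9 library.

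BAMBI had the largest difference of the members. It was at 2.15, 11.7 and 15.2 TPM at P8, at 322 and 183 TPM at P9 and at 15.0, 198 and 414 TPM at P10 (log2 fold change 4.93 ± 0.78, adjusted p = 0.0013). Within r1 this was 149.8-fold from P8 to P9 and 6.97-fold from P8 to P10. SMAD6 was at 3.31, 5.93 and 8.04 TPM at P8, at 21.1 and 14.0 TPM at P9 and at 4.64, 7.31 and 22.2 TPM at P10 (1.54 ± 0.33, adjusted p = 0.00656), so P10.r1 and P10.r2 stayed within the P8 range. SMAD7 was at 31.6 and 32.6 TPM at P9 and at 12.8, 31.3 and 58.2 TPM at P10 (1.70 ± 0.37, adjusted p = 0.00677), and it was above its own P8 level in every differentiation, by 2.37-fold in P10.r1 and by 2.76-fold to 5.84-fold in the other late libraries. The receptor SMAD gene SMAD9 was at 42.9 and 13.1 TPM at P9 and 5.13, 6.71 and 19.8 TPM at P10 and was not called (1.52 ± 0.57, adjusted p = 0.0888).

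The type I receptors did not share this range. BMPR1A lay between 40.2 and 92.6 TPM in all 47 libraries and was at 54.8, 58.5 and 66.7 TPM at P8, 92.6 and 80.5 TPM at P9 and 80.6, 70.0 and 82.7 TPM at P10. Every late library lay above every P8 library, by a log2 fold change of 0.53 ± 0.13 that did not pass the test (adjusted p = 0.0132). Among whole cultures BMPR1B was at 5.61, 6.29 and 5.96 TPM at P3, its highest in r2 and r3, and its highest in r1 was 5.70 TPM at P5. Fractions lay higher in r3, at 7.30 TPM in P5 EPI, and in r1, at 6.98 TPM in P5 MES. BMPR1B was at 1.04 and 2.04 TPM at P9 and 3.93, 3.32 and 1.83 TPM at P10. In the test for any difference among the 12 time points, 9 of 10 members were called, beside 27.4% of all genes, and 9 beside 30.3% without P1.r1 and P10.r1. BAMBI had the widest span of them, 6.15 on the log2 scale between its lowest and highest time points. BMPR1A was the exception, with a largest difference of 0.80 between time points (adjusted p = 0.000214).

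**Figure D3:**
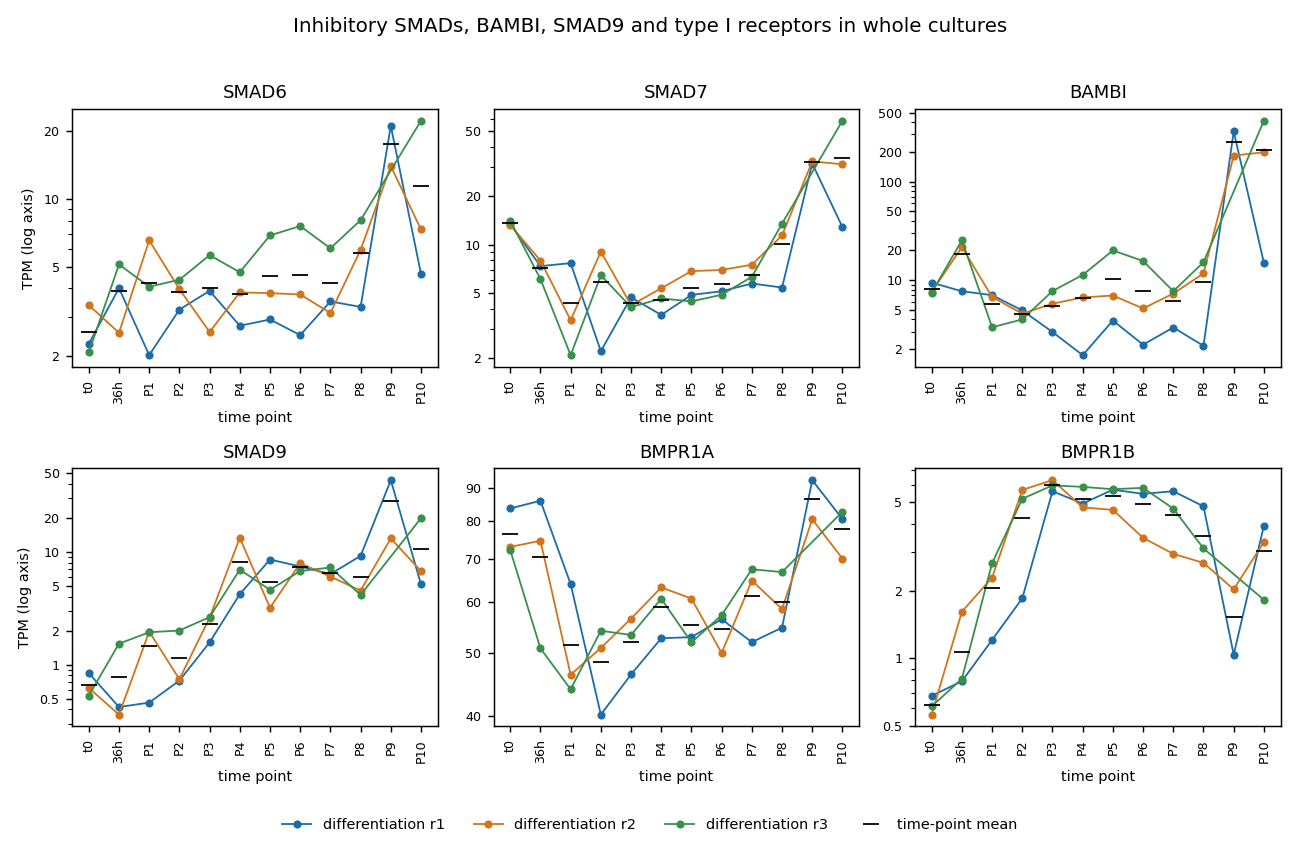
TPM on a log axis of SMAD6, SMAD7, BAMBI, SMAD9, BMPR1A and BMPR1B in the 35 whole cultures, with 1 line per differentiation and a bar at the time-point mean. BAMBI is at 25.4 TPM or less up to P8 and reaches 183 to 414 TPM in the late libraries other than P10.r1, SMAD7 lies below its t0 level of 13.2 to 14.01 TPM from 36h to P7, and BMPR1B has its highest mean at P3.

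**Figure D4:**
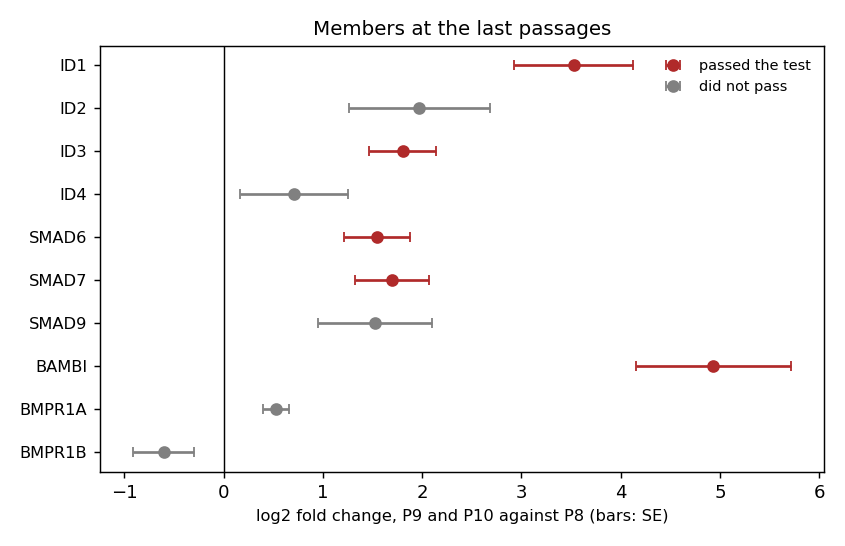
log2 fold change of each member in P9 and P10 against P8 with its SE (bars), from the edgeR fit of the 35 whole cultures. The 5 members that passed the test (red) lie between 1.54 and 4.93, and BMPR1B is the only member below 0.

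Without P1.r1 and P10.r1, 6 members were called beside 5.27% of all genes, and ID1 and BAMBI had log2 fold changes of 3.73 and 5.17. P10.r1 had the lowest late level of each of the 5 members, so leaving it out enlarges these differences and is no support for them. The late calls depended on the block and on single differentiations: 0 members were called without the block (adjusted p from 0.0116 for BAMBI to 0.0663 for SMAD6), without r2 (0.0763 for ID1 to 0.145 for SMAD7), without r3 (0.0946 for ID1 and BAMBI to 0.127 for SMAD6) or with only the compared groups in the fit (0.228 for each), and 4 without r1. The directions of the 5 members were kept in all of these fits. Over all genes 0 were called without r2, without r3 or with only the compared groups, 37 without the block and 927 (4.12%) without r1. The block rests on the shared experiment of same-numbered libraries, whose deviations correlated at -0.02 to 0.04 between P9 and P8. P9 has only 2 libraries, and P10 was not set against P8 in this check.

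Marker sums of other cell types are given beside these levels. Neural crest markers summed to 1197 and 1199 TPM at P9 and to 326, 971 and 1109 TPM at P10, against 223, 493 and 824 TPM at P8. Epithelial progenitor markers summed to 16.5 and 16.9 TPM at P9 and to 428, 7.37 and 5.29 TPM at P10, against 706, 253 and 162 TPM at P8. None of the 9 neural crest markers and none of the 6 epithelial progenitor markers was called between these passages (3 and 2 had an adjusted p under 0.05), with median log2 fold changes of 0.35 and -2.38. Both of the marker sums of P10.r1 lay within the P8 range. Neuron markers summed to 158 to 462 TPM at P9 and P10 against 173 to 234 TPM at P8, the 6 amnion or surface ectoderm markers to at most 1.36 TPM and the 5 cardiac or lateral mesoderm markers to at most 7.35 TPM in those libraries. The 4 endothelium markers summed to 2.26, 10.4 and 2.18 TPM at P8, to 7.72 and 16.6 TPM at P9 and to 5.15, 13.4 and 9.83 TPM at P10, higher than P8 in each differentiation. None of these 4 was called (2 had an adjusted p under 0.05), and their median log2 fold change was 1.52. KRT14 was at 0 in each P8, P9 and P10 library. The part of crest, epithelial and endothelial content in the late levels was not tested.

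None of the ligands and 1 of the antagonists passed the test at these passages. BMP4 was at 61.2, 268 and 112 TPM at P8, at 153 and 622 TPM at P9 and at 191, 914 and 474 TPM at P10 (log2 fold change 1.70 ± 0.50, adjusted p = 0.032, not called). Of the 10 tested ligands 0 were called (2 had an adjusted p under 0.05). NOG was at 41.2, 32.9 and 38.7 TPM at P8, at 17.8 and 15.7 TPM at P9 and at 75.6, 1.81 and 9.81 TPM at P10, and GREM1 had a log2 fold change of -2.11 ± 0.57 (adjusted p = 0.0223, not called). P10.r1 had more BMP4 than P8.r1, by 3.12-fold, and more NOG, by 1.83-fold, with ID1 at 2.58-fold, whereas P9.r1 had 2.5-fold more BMP4, 0.433 of the NOG level and 28.4-fold more ID1 than P8.r1. In r2 the order was another: ID1 stood at 14.8-fold its P8 level at P9 and 10.5-fold at P10, with BMP4 at 2.32-fold and 3.40-fold and NOG at 0.479 and 0.0551 of the P8 level. P10.r3 had 4.22-fold more BMP4, 0.253 of the NOG level and 7.03-fold more ID1 than P8.r3, so NOG and ID1 had no common order over the differentiations. Among 16 antagonists and modulators NBL1 was called higher (2.93 ± 0.63, adjusted p = 0.00661). Of the other genes of the pathway, the receptor gene ACVR1 was called higher (1.12 ± 0.23, adjusted p = 0.00499) and the co-receptor gene RGMA lower (-3.50 ± 0.59, adjusted p = 0.00164) among 8. Among 11 other BMP-associated genes 3 were called higher, led by the homeobox gene MSX2 (4.34 ± 0.76, adjusted p = 0.00227). Of the 3 E proteins that ID proteins hold, TCF4 (1.56 ± 0.32, adjusted p = 0.00518) and TCF12 (1.41 ± 0.26, adjusted p = 0.00303) were called higher. Among 7 WNT targets, NOTUM, a secreted WNT inhibitor, was called higher (4.63 ± 1.05, adjusted p = 0.00838).

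The levels of members and ligands were then set side by side along each differentiation, as a description without a test, because serial passages of 1 culture are not independent and all values of a library share its depth and scaling. Spearman's rho between a member and the ligand sum had a median over the 10 members of 0.41 in r1 (12 time points), 0.42 in r2 (12 time points) and 0.69 in r3 (11 time points). The same median over all genes tested was 0.12, 0.05 and 0.04, with upper quartiles of 0.52, 0.43 and 0.41. ID4 had 0.89, 0.57 and 0.75 and SMAD9 0.82, 0.65 and 0.82. BMPR1B had 0.42, 0.22 and 0.54. ID1 had 0.72, 0.48 and 0.71. SMAD7, whose levels were lowest while the ligands rose, had 0.07, 0.37 and -0.04, and BAMBI had 0.03, 0.44 and 0.66. Averaged over the differentiations, the median of the members was 0.51, 0.35 without P9 and P10 and 0.55 without P1.r1 and P10.r1. With NOG in place of the ligands, ID4 had 0.78, 0.87 and 0.43 and BAMBI -0.36, -0.49 and 0.37.

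Within time points, the deviations of the 35 libraries from their time-point means correlated with those of the ligand sum at a Pearson r of 0.58 for BAMBI, 0.46 for ID1, 0.31 for ID3 and -0.11 for ID4. The median of the members was 0.22, 0.16 without P1.r1 and P10.r1 and -0.36 without r1, so this relation rests on differentiation r1 and no order of the differentiations is read from it.

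Members also differed from each other along the course. Median rho over the differentiations was 0.80 for ID2 with SMAD9, 0.80 for SMAD7 with BMPR1A and 0.72 for ID1 with ID2 and with ID3, but -0.66 for BAMBI with BMPR1B and -0.57 for SMAD7 with BMPR1B. In the order of mean levels over the 12 time points, P9 or P10 was the highest for each member other than BMPR1B, and t0 was the lowest for the 4 ID genes, SMAD6, SMAD9 and BMPR1B. Of the 11 pairs of neighbours in that order, all overlapped between libraries for 7 members and 10 did for SMAD7, SMAD9 and BMPR1B. The overlaps were not counted over all genes, so they limit the order and say nothing particular about the members. Over the 16 group means and among 13293 genes, the genes most like ID1 were SOX11, CRAMP1 and ZNF821 (Pearson r 0.94, 0.93 and 0.92), those most like ID2 were GORAB, MDM4 and CBFA2T2 (0.98, 0.94 and 0.94), those most like ID3 were POLB, RAB3GAP1 and FBXO7 (0.92, 0.90 and 0.88) and those most like ID4 were PRDM4, AC104083.1 and REV1 (0.99 each).

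The fractions were used to see whether the fraction with more ligand message also held more message of the members. Only RNA was measured and both fractions came from the same culture, so the ligand that reached each fraction is not known. At P5 the neural crest markers summed to 484 to 676 TPM in MES and 181 to 349 TPM in EPI, and the epithelial progenitor markers to 87.8 to 257 TPM in MES and 466 to 728 TPM in EPI, as the labels say. Neuron markers were lower in MES in each culture, at 76.9 to 163 TPM against 192 to 291 TPM in EPI. Higher in MES in each culture were hESC markers (32.7 to 55.5 against 17.0 to 34.25 TPM) and endothelium markers (1.79 to 5.34 against 0.85 to 1.51 TPM). The same held for cardiac or lateral mesoderm markers (2.10 to 6.85 against 0.24 to 2.40 TPM). The part of these cells in the member levels was not tested. BMP4 was at 57.8, 155 and 242 TPM in EPI and 526, 415 and 481 TPM in MES, so every MES library lay above every EPI library (log2 fold change 2.06 ± 0.48, adjusted p = 0.0404, not called). NOG was at 47.4, 71.0 and 70.1 TPM in EPI and 29.7, 43.2 and 19.5 TPM in MES, with the opposite order (log2 fold change -1.04 ± 0.37, adjusted p = 0.12). Both values are from the fit with differentiation as the block. It called 0% of all genes here, so the lack of a call says nothing about BMP4 or NOG.

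In the fit with differentiation as the block, 0 of 10 members were called between MES and EPI at P5, and the background was 0% of all genes, so the count says nothing about the members (3 had an unadjusted p under 0.05). DESeq2 called 0 members and 3.48% of all genes. With each culture as the block, so that the fractions of a culture were paired, 1 member was called beside 1.62% of all genes. This was BAMBI, at 2.82, 6.5 and 14.3 TPM in EPI and 6.07, 14.0 and 27.0 TPM in MES. The groups overlapped, but within each culture MES was higher, and the log2 fold change was 1.08 ± 0.37 with differentiation as the block (adjusted p = 0.11) and 1.08 ± 0.09 with culture as the block (adjusted p = 0.00396).

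SMAD6 was at 2.49, 2.99 and 4.51 TPM in EPI and 4.94, 6.27 and 7.84 TPM in MES, with no overlap (log2 fold change 0.71 ± 0.16, adjusted p = 0.0396, under the fold of 2). ID1 was at 75.8, 44.1 and 112 TPM in EPI and 164, 83.3 and 132 TPM in MES, higher in MES in each culture (0.93 ± 0.70, adjusted p = 0.451, and 0.80 ± 0.16 with culture as the block, adjusted p = 0.0171). SMAD9 went the other way, at 8.11, 4.48 and 5.87 TPM in EPI and 4.21, 2.20 and 2.42 TPM in MES, with no overlap (-0.83 ± 0.18, adjusted p = 0.0325). ID1, SMAD6, BAMBI and BMPR1A were higher in MES in all 3 cultures and SMAD9, SMAD7 and ID4 lower, beside 24.4% and 31.1% of all genes, respectively. ID2, ID3 and BMPR1B had no common direction. The median log2 fold change of MES against EPI over the members was 0.05, beside -0.01 over all genes tested, and the log2 ratio of the ligand sum was 1.31 ± 0.82 (SD, n = 3).

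At P8 the neural crest and epithelial progenitor marker sums of the fractions overlapped between cultures but kept their order within each. Neuron markers did not, at 176, 177 and 305 TPM in EPI and 155, 232 and 412 TPM in MES of r1, r2 and r3. They were thus lower in MES in r1, as at P5, but higher in r2 and r3. Neural crest markers summed to 194, 493 and 857 TPM in EPI and 351, 533 and 1148 TPM in MES. Epithelial progenitor markers summed to 657, 279 and 185 TPM in EPI and 452, 182 and 51.8 TPM in MES. BMP4 was at 55.5, 259 and 253 TPM in EPI and 102, 304 and 374 TPM in MES. Of the members, 0 of 10 were called beside 0% of all genes (1 at an unadjusted p under 0.05, 0 by DESeq2 beside 0.277%, and 0 with culture as the block). ID1 was at 17.7, 37.9 and 240 TPM in EPI and 34.3, 84.4 and 386 TPM in MES, about the same step in each culture, with a mean log2 ratio of 0.91 ± 0.23 (SD, n = 3). ID1, SMAD6, SMAD7 and BAMBI were higher in MES in all 3 cultures, beside 22.5% of all genes, and SMAD9 was lower, beside 17.7%. For SMAD6 the log2 fold change was 0.51 ± 0.16 (adjusted p = 0.333). The difference of the MES to EPI ratio between P8 and P5 was called for 0 of 10 members and 0% of all genes (0 at an unadjusted p under 0.05, and 0 by DESeq2 beside 0.0103%). With culture as the block, the difference in the ratio of BAMBI was -0.67 ± 0.13 (adjusted p = 0.264) and that of SMAD9 0.51 ± 0.14 (adjusted p = 0.286), and neither passed.

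**Figure D5:**
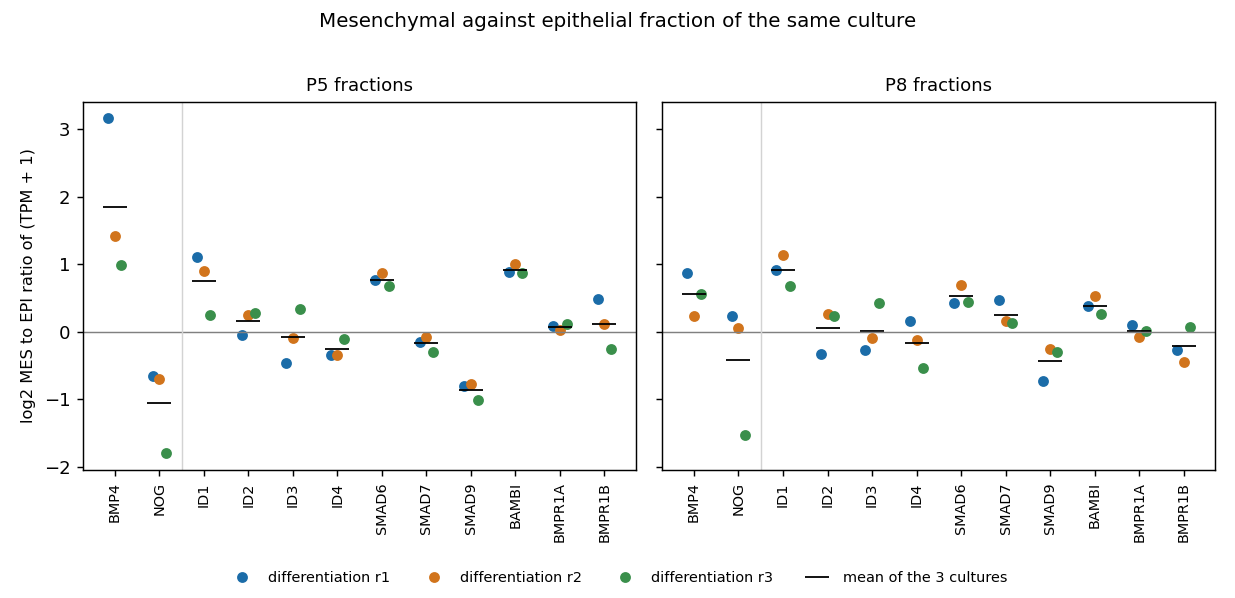
log2 ratio of (TPM + 1) in MES to EPI for BMP4, NOG and the 10 members in the 3 cultures of P5 (left) and P8 (right), with points for cultures and bars for their means. BMP4, ID1, SMAD6 and BAMBI lie above 0 in all 6 cultures and SMAD9 below 0 in all 6, and the mean of BMP4 goes from 1.86 at P5 to 0.55 at P8.

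Across passages within a fraction, 0 of 10 members were called in EPI beside 0.246% of all genes (0.0308% lower) and 0 in MES beside 0.683% (4 in each at an unadjusted p under 0.05, and 1 in each by DESeq2, beside 3.1% and 3.84% of all genes). SMAD7 was at 5.20, 5.78 and 5.29 TPM in P5 EPI and 5.59, 15.1 and 16.4 TPM in P8 EPI (log2 fold change 1.28 ± 0.29, adjusted p = 0.0367). In MES it went from 4.58, 5.43 and 4.13 TPM to 8.09, 16.8 and 18.0 TPM, with no overlap (1.55 ± 0.30, adjusted p = 0.0199). BMPR1B had log2 fold changes of -0.83 ± 0.19 in EPI (adjusted p = 0.038) and -0.90 ± 0.20 in MES (adjusted p = 0.0274). Over the same step BMP7 was called higher in EPI (1.73 ± 0.10, adjusted p = 0.000656) and in MES (1.53 ± 0.10, adjusted p = 0.00179). BMP2 stood at 3.07, 6.56 and 2.03 TPM in P5 MES and at 28.8, 93.0 and 57.4 TPM in P8 MES and was called higher there (3.85 ± 0.44, adjusted p = 0.00607), whereas in EPI it missed the threshold (3.02 ± 0.42, adjusted p = 0.0133). The BMP7 calls and the BMP2 call were lost without the block, without r2, without r3, with all libraries in 1 fit and with only the compared groups, with the same direction in each.

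The whole culture was not always between its fractions. In P8.r3, 9 of 10 members were lower in the whole culture than in either fraction, beside 29.8% of all genes, with ID1 at 97.8 TPM in the whole culture, 240 TPM in EPI and 386 TPM in MES. In P8.r2 6 of 10 members were lower than in both fractions, beside 34.9% of all genes, and in P8.r1 2 were, beside 21.2%. In P5.r1, P5.r2 and P5.r3 it was 0, 3 and 2 members, beside 20.7%, 24% and 24.9% of all genes. Detachment and handling differ between the whole cultures and the fractions by design, and their part in these levels was not tested.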

How the data were processed

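RNA was poly(A)-selected and sequenced single-end. The submitters' processing notes name cutadapt 1.16, STAR 2.5.2b, RSEM 1.3.0 and GRCh38. The annotation release and strand setting are not given in the sources used here. The authors deposited RSEM expected counts per gene, of which 9.33% were not whole, and TPM, which are those counts per effective length scaled per library. Symbols came from GENCODE 29 for 57447 of 58051 genes, and 604 had none.

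Expected counts were rounded and tested with edgeR 4.0.16 (TMM, filterByExpr, glmQLFit, glmQLFTest) in R 4.3.3, in a fit of the 35 whole cultures and a fit of the 12 fractions, with replicate number as a block. Normalized counts are rounded counts over TMM size factors scaled to a geometric mean of 1. Pairing was checked on deviations from group means, for pairs of groups that did not include P10. The design text puts every time point into each experiment, which is the ground for the block. Same-numbered deviations correlated at 0.589 to 0.684 between P5_MES and P5_EPI and 0.096 to 0.434 between P8 and P5, but at -0.017 to 0.038 between P9 and P8, -0.086 to 0.064 between 36h and t0 and -0.061 to 0.036 between P5 and P1, so the data themselves do not show pairing there. No replicate pair agreed within sampling noise, so each library counted as 1 sample. The biological coefficient of variation was 34% for whole cultures and 23% for fractions.

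All 10 members are named. Other genes named are BMP2, BMP4, BMP5, BMP6, BMP7, NOG, CHRD, GREM1 and FST and up to 2 called genes per list, by largest change. Likeness used the 3 highest Pearson r for each ID gene over 16 group means of log2(normalized counts + 1). Ratios and rho used log2(TPM + 1). Motifs were searched in RefSeq promoter windows (GRCh38.p14). The fitting code was tested on simulated data. Members and lists were chosen with earlier results of these data known. Alternatives were no block, DESeq2 1.42.0, its size factors in edgeR, 2 other count filters, each replicate left out, other libraries in the fit and other thresholds. The fits without P1.r1 and P10.r1 and with culture as the block were added after the data were seen.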

Additional observations from a re-analysis of the deposited data

Results flagged for a closer look

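SMAD7 had the opposite direction between the fractions at P5 and P8. Its log2 ratio of MES to EPI (TPM + 1) was negative in the 3 cultures of P5, with a mean of -0.17 ± 0.11 (SD, n = 3), and positive in the 3 cultures of P8, with a mean of 0.25 ± 0.19 (SD, n = 3), a difference of 0.42. The edgeR test of that difference on counts, with culture as the block, gave 0.30 ± 0.14 (SE, adjusted p = 0.433), so it did not pass.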

How the results depend on the processing

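Counts of called members and relations to the ligands were recomputed, giving 186 values. Of these, 163 stayed within 1.5 times the reported count or within the spread between differentiations. A count of 0 in both fits entered as unchanged, and most comparisons had 0 members called in the main fit. The tally therefore does not measure how firm the late calls are. Direction was checked only for named genes with an unadjusted p under 0.05 in the main edgeR fit or with culture as the block. None of those log2 fold changes changed direction under any setting. Without the replicate block, 1 member was called in P5 against P1, beside 3.31% of all genes, and 0 in P9 and P10 against P8, beside 0.17%, where 5 were called with the block. With each replicate left out in turn, the number called was 0 to 1 at 36h against t0, 0 to 2 at P1 against 36h, 0 to 1 at P5 against P1, 0 to 4 at P9 and P10 against P8 and 0 to 1 in P8 against P5 for EPI and for MES, and the median r of the members with the ligand sum within time points was -0.36 to 0.29. In the same order, the share of all genes called was 0.368% to 3.96%, 0.00888% to 4.23%, 0.471% to 5.48% and 0% to 4.12%. It was 0% to 2.01% for EPI and 0% to 1.17% for MES, and each highest share was without r1. DESeq2 called 2 members at P5 against P1 and 1 in P8 against P5 for EPI and for MES. An FDR under 5% gave 1 at 36h against t0, 2 at P5 against P1 and 1 for EPI and for MES. The share of all genes at that threshold is not given here, so nothing about the members is read from these counts. All 47 libraries in 1 fit gave 2 at P5 against P1, beside 4.99% of all genes, and only the compared groups gave 0 at P9 and P10 against P8, beside 0%. Without P1.r1 and P10.r1, 1 member was called at P1 against 36h and 1 at P5 against P1. Culture as the replicate block within each passage gave 1 between MES and EPI at P5. The median rho of the members with the ligand sum was 0.35 without P9 and P10. The causes were not tested. The shallowest library held 13029491 expected counts, and BMPR1B and SMAD9 were under 1 TPM in some early libraries.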
